A study of Arabidopsis thaliana with 24 samples.

Results

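The comparison described here set the shoots of 41-OX seedlings, which express CLE41 constitutively, against the shoots of pxy seedlings, which carry the pxy-5 allele of the receptor gene PXY. It used 8 of the 24 libraries of the series, taken by genotype and organ: 41-OX shoot replicates 1 to 4 and pxy shoot replicates 1 to 4. Each library held total RNA from shoots of 7-day-old Arabidopsis thaliana seedlings. The series also holds shoots of the Col-0 wild type (WT) and the roots of all 3 genotypes, with 4 biological replicates in each of 6 groups. Neither line was compared with WT in the fit. WT shoot levels are printed beside the others to show where each line stood. The labels do not give the promoter that drives CLE41 in 41-OX, or whether 41-OX is 1 line or several. They give 2 technical replicates per sample, and whether these were pooled is not given in the sources used here.

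CLE41 and its close relative CLE44 encode TDIF, a short secreted peptide made in the phloem. TDIF binds PXY, a receptor kinase on the surface of procambium and cambium cells, the dividing cells of vascular bundles. In Arabidopsis the signal keeps these cells dividing, in part through the homeobox factor WOX4, and delays their differentiation into xylem. The comparison therefore sets a line with more of the ligand gene against a line with a mutated receptor, with no wild-type library in the contrast.

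The bases that encode the ligand are shown because they set the gene expressed constitutively in 41-OX beside its sister gene. The last 36 coding bases before the stop codon are from CLE41 at chr3:9047040-9047075 on the plus strand and from CLE44 at chr4:7662667-7662702 on the minus strand (RefSeq TAIR10.1), both inside the coding exon. Capitals mark the bases that differ between the genes.
CLE41: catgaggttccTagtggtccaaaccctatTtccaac
CLE44: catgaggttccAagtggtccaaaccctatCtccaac
They differed at 2 of 36 bases, and none of the 12 codons differed in the amino acid encoded. Both genes thus encode the same peptide, from loci on different chromosomes that were counted separately.

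The 8 libraries held 7033091 to 9025246 counts each. WT shoot replicate 2 held 167131 counts and is left out of every WT level below, so WT levels rest on 3 libraries. The labels were checked at 2 pseudogene loci, which were picked because they differ between the 8 shoot libraries, so only the root libraries, which that choice did not use, bear on the labels. AT5G35935 (chr5:14083388-14089891) had 7 counts in the 41-OX shoots together, against 604 in the pxy shoots, and AT2G06590 (chr2:2633129-2635227) had 320 counts in the 41-OX shoots, against 0 in the pxy shoots. The library labelled pxy root replicate 2 did not go with its label. Its 170 root-specific genes stood at a median of 5.44% of the WT root level and its 350 shoot-specific genes at 91.6% of the WT shoot level. AT5G35935 stood at 1.30 CPM in it, against 32.2 to 44.8 CPM in the other pxy roots. AT2G06590 stood at 0.811 CPM in it, against 0, 0 and 0.127 CPM in the other pxy roots and 3.13 to 5.46 CPM in 41-OX roots. The pxy shoots and the 3 WT shoots had 0 counts at AT2G06590, so these loci do not show which genotype that library came from. The library is not among the 8 compared and bears only on the root values and on fits that include roots. In 41-OX root replicate 4 the shoot-specific genes stood at 10.7%, against 0.404% to 1.74% in the other 41-OX roots.

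CLE41 (AT3G24770, chr3:9046293-9047463) was higher in 41-OX shoots. Its level was 25.9, 24.5, 26.4 and 24.6 CPM in the 4 41-OX libraries, against 11.4, 12.7, 12.2 and 8.97 CPM in the 4 pxy libraries and 13.6, 19.4 and 17.0 CPM in the 3 WT libraries. CPM stands for a library's counts scaled to a common total, here after TMM normalisation over the shoot libraries. Every 41-OX library lay above every pxy library, and the WT libraries lay between them. CLE41 averaged 25.3 ± 0.976 CPM in 41-OX and 11.3 ± 1.65 CPM in pxy (SD, n = 4 each), with a log2 fold change of 1.16 (SE 0.12, adjusted p = 4.56e-07). The adjusted p-values here and below come from edgeR's quasi-likelihood test with Benjamini-Hochberg adjustment over all genes tested, and a gene was called at an adjusted p under 0.05. Counts per locus do not separate the transgene from the gene's own copy. The genes that encode the other TDIF-type ligands did not pass: CLE44 averaged 4.98 ± 0.465 CPM in 41-OX and 4.08 ± 1.16 CPM in pxy (adjusted p = 0.329), and CLE42 averaged 5.24 ± 0.896 CPM in 41-OX and 4.84 ± 1.27 CPM in pxy (adjusted p = 0.699).

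The PXY locus (AT5G61480, chr5:24724337-24728244) had fewer counts in 41-OX than in pxy shoots. Its level was 14.0, 15.1, 16.5 and 14.0 CPM in 41-OX, against 35.9, 37.6, 31.7 and 36.8 CPM in pxy and 8.70, 8.10 and 10.12 CPM in WT. The pxy libraries were the highest of the 3 genotypes with no overlap, the 41-OX libraries lay below them, and the WT libraries were lowest. The log2 fold change, 41-OX over pxy, was -1.26 (SE 0.10, adjusted p = 3.42e-08). The counts are summed over the whole locus, so they do not show whether a transcript could encode the receptor and do not check the pxy-5 allele. The next gene on the chromosome, AT5G61490, had 3.59, 2.55, 3.74 and 3.33 CPM in 41-OX, against 1.00, 1.45, 0.844 and 1.48 CPM in pxy and 0.229, 0.176 and 0.513 CPM in WT, so it was highest in 41-OX and lowest in WT.

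**Figure D1:**
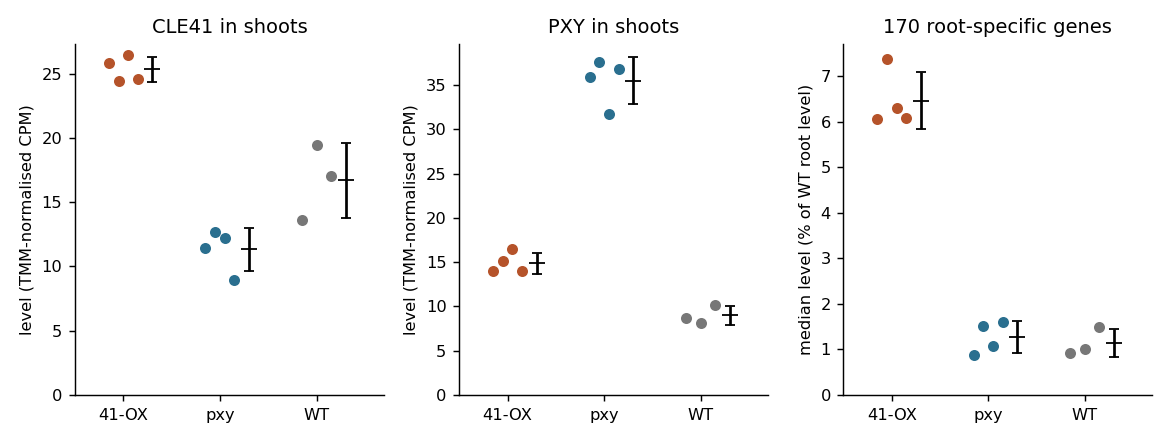
Levels of CLE41 and PXY in shoots (left and middle panels, TMM-normalised CPM) and the median level of 170 root-specific genes (right panel, % of the WT root level) in 41-OX, pxy and WT shoots. Points are libraries, 4 for 41-OX, 4 for pxy and 3 for WT, and bars are the mean and SD. CLE41 and the root-specific median were highest in 41-OX, and PXY counts were highest in pxy.

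Across the transcriptome, 5694 of 19711 genes tested were called. Of these 2780 (14.1% of genes tested) were higher and 2914 (14.8%) were lower in 41-OX than in pxy. Counts of list members called below are to be read beside these shares. The 2 sets of 4 libraries did not overlap for 2746 genes (13.9%) that were higher and 2777 (14.1%) that were lower in 41-OX. At a log2 fold change of at least 1 in size, 885 genes were higher and 194 were lower, so most of the larger differences were upward. WT was nearer to pxy than to 41-OX for 5049 of the called genes (88.7%), and for 8733 of the 14017 genes not called (62.3%). WT lay between the lines for 2910 called genes (51.1%), above both for 1432 and below both for 1352. Of the genes not called, WT lay between the lines for 4191 (29.9%).

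Root transcripts were higher in 41-OX than in pxy shoots, and they bear on many of the results below. The 170 genes taken as root-specific from WT libraries had medians of 6.07%, 7.38%, 6.32% and 6.09% of their WT root level in the 41-OX shoots, against 0.879%, 1.51%, 1.08% and 1.61% in the pxy shoots and 0.917%, 0.999% and 1.49% in the WT shoots. All 4 41-OX libraries lay above all pxy and WT libraries, and pxy and WT overlapped. These are bulk libraries, so more cells of a type and more RNA per cell cannot be told apart, here and in every result below. Of the 170, 132 were tested, and 110 of these reached the low-count limit, the CPM that edgeR's filterByExpr asks of a library, in all 4 41-OX libraries but not in all 4 pxy libraries. A count of calls among them was therefore largely fixed by that limit and is not given. For each of the 170 the excess of 41-OX over pxy was expressed as a share of the WT root level, with a median of 4.82% and quartiles of 2.84% and 9.22%. That median, multiplied by any other gene's WT root level, is called its root share below, and a difference larger than the root share is said to exceed it. The share comes from a median, so many of the root-specific genes themselves exceed it. Exceeding the root share therefore does not separate root RNA from a change within the shoot. The 350 shoot-specific genes had medians of 79.2% to 84.1% of the WT shoot level in 41-OX shoots, against 92.0% to 99.3% in pxy shoots. Among genes whose WT levels lay within 1.5-fold between organs, 6898 were tested, and 219 (3.17%) were called higher and 578 (8.38%) lower in 41-OX, with p adjusted again over those genes. The part of root RNA in each result below was not tested.

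**Figure D2:**
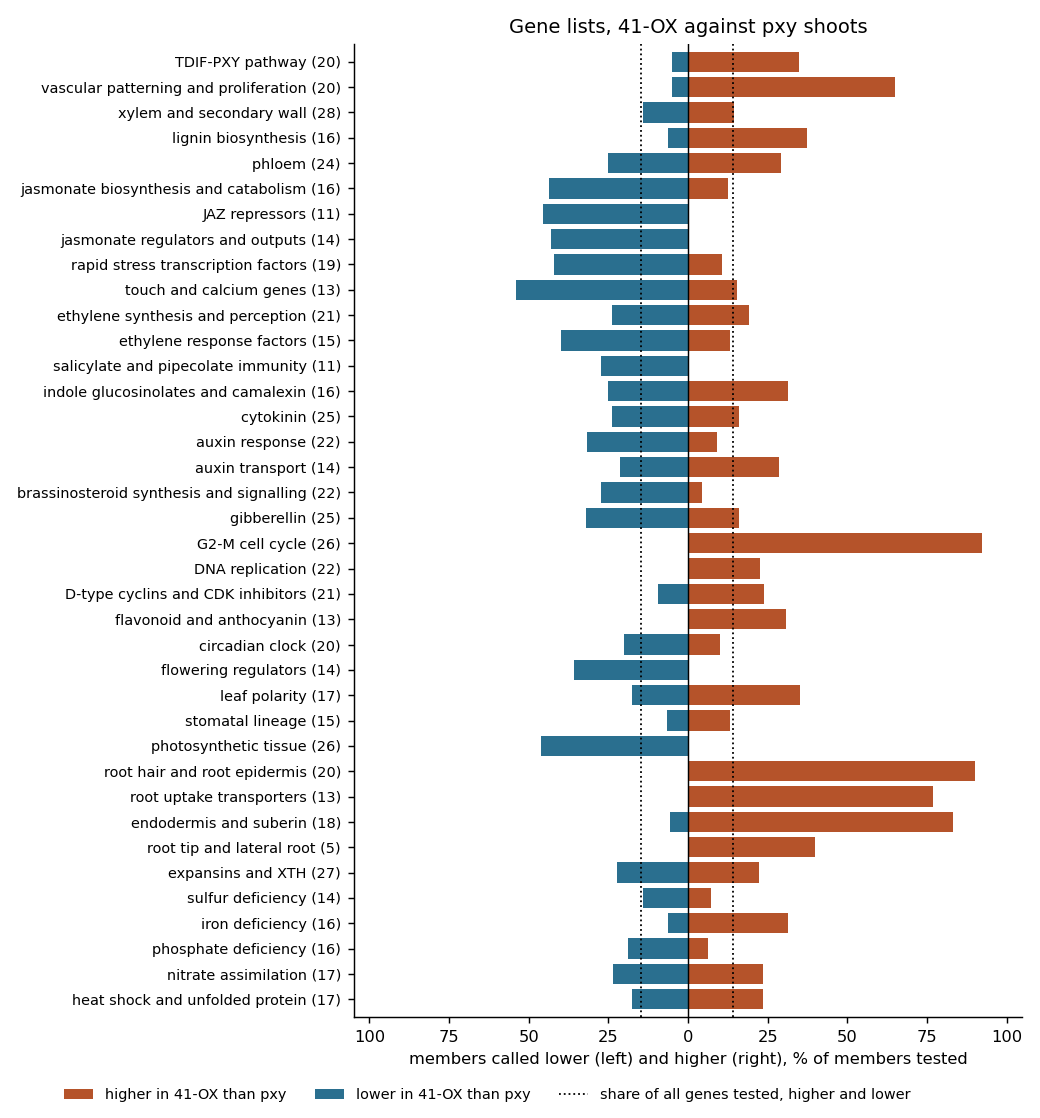
Share of the tested members of 38 gene lists called lower (left) and higher (right) in 41-OX than in pxy shoots, in percent. The number tested stands in parentheses, and the dotted lines mark the shares of all genes tested, 14.8% lower and 14.1% higher. The G2-M, root hair, endodermis, root uptake and vascular lists reach furthest to the right, and the touch, photosynthetic and jasmonate lists furthest to the left.

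The number of calls depended on which libraries shared the estimate of spread. A fit of all 24 libraries, pxy root replicate 2 and WT shoot replicate 2 among them, called 614 of 21245 genes higher and 179 lower. List counts from the 24-library fit, here and below, are to be read beside these numbers, not beside the shares of the main comparison. In that fit 14 members of the root hair list were called higher. Each of the other 37 lists had at most 6 members called higher and 2 called lower. A 22-library fit without those 2 libraries was chosen after seeing the data.

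In the TDIF-PXY list, 7 of 20 members tested were higher in 41-OX, 1 was lower and 12 did not pass, with a median log2 fold change of 0.35 against -0.01 over all genes tested. In the 24-library fit 2 were higher and 1 was lower, and without pxy replicate 3 there were 5 higher. Besides CLE41, the higher members were a receptor kinase related to PXY and 5 transcription factors. WOX4, a target of the pathway that keeps the cambium dividing, had 9.16, 8.46, 7.47 and 6.77 CPM in 41-OX, against 6.14, 4.96, 3.98 and 5.23 CPM in pxy and 7.44, 8.89 and 7.69 CPM in WT. Every 41-OX library exceeded every pxy library, and the WT libraries overlapped with 41-OX and lay above all pxy libraries. Its log2 fold change was 0.66 (SE 0.17, adjusted p = 0.00639), and the difference of 2.89 CPM exceeded the root share of 0.109 CPM. TMO6, a Dof factor of the cambium, had 42.9, 40.6, 40.0 and 37.0 CPM in 41-OX, against 25.01, 27.5, 27.6 and 30.7 CPM in pxy and 28.2, 34.5 and 32.3 CPM in WT. The groups of 41-OX and pxy did not overlap, with a log2 fold change of 0.53 (SE 0.089, adjusted p = 0.000146). ATHB8, a class III HD-ZIP factor that marks procambium, averaged 39.0 ± 5.48 CPM in 41-OX and 28.8 ± 2.28 CPM in pxy, and KNAT1, a KNOX factor, averaged 23.5 ± 1.88 CPM in 41-OX and 17.7 ± 2.54 CPM in pxy. Both rose in 41-OX over pxy, with log2 fold changes of 0.44 and 0.41 (adjusted p = 0.00345 and 0.00954), but KNAT1 did not pass in the 22-library fit, at 0.41. PXL2, a PXY-related kinase, had a log2 fold change of 0.67 (adjusted p = 0.0144) that did not pass without pxy replicate 3, at 0.59. LBD4, a factor of the phloem side of the cambium, had one of 0.44 (adjusted p = 0.0455) that did not pass without 41-OX replicate 1, 3 or 4 or pxy replicate 2 or 3, at 0.32 to 0.42.

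Vascular patterning and proliferation genes were mostly higher in 41-OX. Of 20 members tested, 13 rose, 1 fell and 6 did not pass, with a median log2 fold change of 0.52, and TMO6 is a member of this list too. The low-count limit was reached in all 4 41-OX libraries but not in all 4 pxy libraries by 3 of the 20, so the count depends in part on that limit. The 24-library fit called 6 higher and none lower. All 13 differences exceeded the root share, which had a median of 14.97% of the difference. The AP2 factors of the PLETHORA family, which act in meristems and organ outgrowth, showed the largest differences. PLT5 had 8.17, 10.09, 6.09 and 8.83 CPM in 41-OX, against 1.29, 1.45, 1.45 and 0.909 CPM in pxy and 2.40, 4.49 and 3.08 CPM in WT. Its 41-OX libraries stood far above the others, and the pxy libraries lay below all WT libraries. The log2 fold change was 2.71 (SE 0.23, adjusted p = 7.7e-08). PLT3 had 9.03, 5.81, 6.78 and 7.23 CPM in 41-OX, against 1.57, 3.51, 2.17 and 2.73 CPM in pxy and 3.09, 5.02 and 4.101 CPM in WT, again with 41-OX above every other library. Its log2 fold change was 1.5 (SE 0.22, adjusted p = 4.41e-05). ANT, an AP2 factor that promotes organ growth and cambium activity, averaged 28.5 ± 2.23 CPM in 41-OX and 19.98 ± 2.24 CPM in pxy (log2 fold change 0.51, adjusted p = 0.000903).

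Other transcription factors of vascular development moved the same way. MP, the auxin response factor that starts vascular development in the embryo, had 23.1, 34.5, 26.8 and 26.5 CPM in 41-OX, against 12.4, 14.9, 15.8 and 18.3 CPM in pxy and 15.9, 19.1 and 15.6 CPM in WT. The lowest 41-OX library was above the highest pxy and WT libraries (log2 fold change 0.85, SE 0.13, adjusted p = 6.78e-05). REV, a class III HD-ZIP factor of vascular and leaf polarity, had 32.5, 33.6, 27.1 and 34.6 CPM in 41-OX, against 14.2, 21.8, 19.9 and 17.2 CPM in pxy. PHB, of the same family, averaged 80.2 ± 2.24 CPM in 41-OX and 54.5 ± 1.60 CPM in pxy. Their log2 fold changes were 0.81 and 0.56 (adjusted p = 4.5e-05 and 4.98e-06), without overlap of the groups. LOG3, an enzyme that releases active cytokinin, averaged 4.37 ± 0.364 CPM in 41-OX and 2.36 ± 0.292 CPM in pxy (log2 fold change 0.89, adjusted p = 0.00267). The D-type cyclins that cytokinin induces did not move together: CYCD3;1 rose with a log2 fold change of 0.59 (adjusted p = 6.69e-05) and CYCD3;3 with one of 0.33 (adjusted p = 0.00502), while CYCD3;2 fell by 0.24 on the log2 scale (adjusted p = 0.0211). That fall did not pass without 41-OX replicate 2 or pxy replicate 2 or 4, at -0.20 to -0.22, nor with DESeq2 size factors, at -0.20. The calls of PLT7, PEAR1 and ATHB15 were as close to the threshold. PLT7 did not pass without 41-OX replicate 1, 2 or 4 or pxy replicate 1, 3 or 4 (0.59 to 0.75), PEAR1 without 41-OX replicate 1, 3 or 4 or pxy replicate 1 or 4 (0.58 to 0.82), and ATHB15 without 41-OX replicate 1, 2 or 4 or pxy replicate 1 or 3 (0.17 to 0.22).

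**Figure D3:**
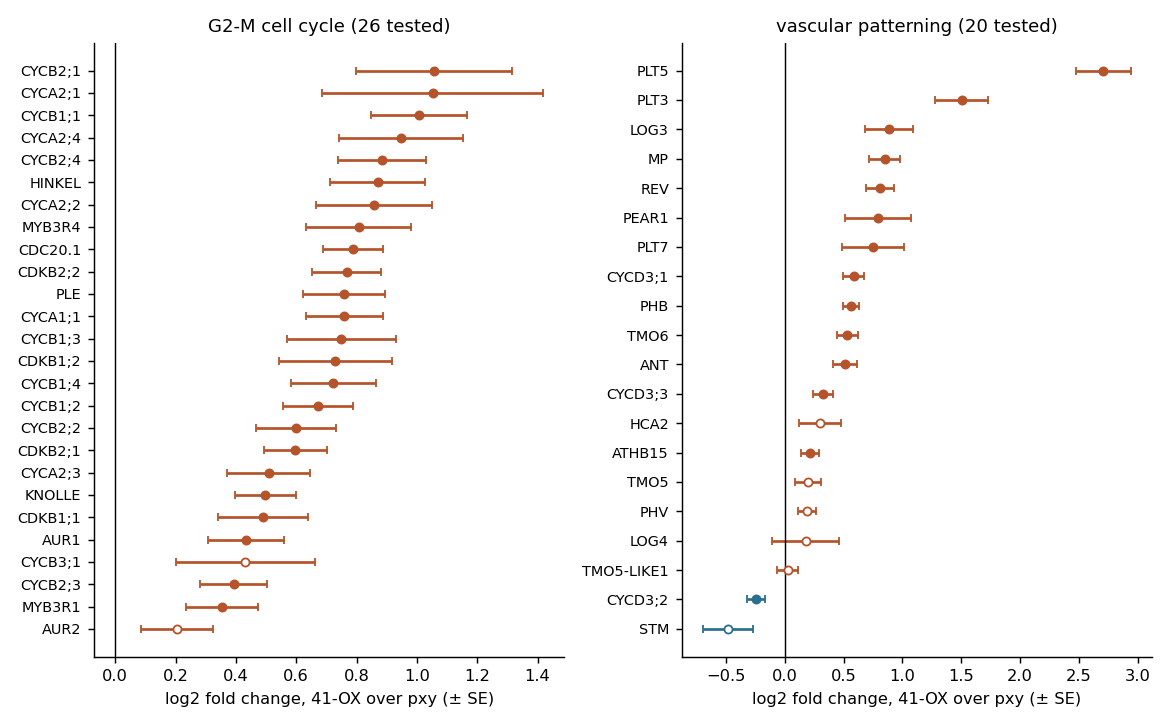
Log2 fold change, 41-OX over pxy in shoots, with its SE for the tested members of the G2-M list (left, 26 genes) and the vascular patterning list (right, 20 genes). Filled points were called and open points were not. In the G2-M list 24 points are filled, all above 0, and in the vascular list PLT5 and PLT3 stand furthest from 0.

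Genes of the G2 to M step of the cell cycle, when cells enter mitosis and divide, had the highest share of called members among the 38 lists. Of 26 members tested, 24 rose in 41-OX, none fell and 2 did not pass, and all 26 values were above 0, with a median log2 fold change of 0.74. The low-count limit was reached in all 4 pxy libraries by 24 of the 26, and only in all 4 41-OX libraries by the other 2. All 24 differences exceeded the root share, which had a median of 33.1% of the difference. None of the 26 had WT levels within 1.5-fold between organs, so the subset of genes with even levels holds none of them. WT lay between 41-OX and pxy for all 24 called members, and nearer to pxy for 18. CYCB1;1, a mitotic cyclin, had 10.3, 11.8, 8.86 and 8.72 CPM in 41-OX, against 5.29, 4.48, 4.70 and 5.34 CPM in pxy and 6.18, 6.95 and 6.54 CPM in WT. The 41-OX libraries were the highest and the pxy libraries the lowest, without overlap among the 3 genotypes. Its log2 fold change was 1.01 (SE 0.16, adjusted p = 7.92e-05), from a difference of 4.96 CPM and a root share of 1.13 CPM.

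CDC20.1, an activator of the complex that ends mitosis, had 42.9, 42.9, 35.8 and 42.0 CPM in 41-OX, against 27.3, 24.7, 22.3 and 21.0 CPM in pxy and 22.4, 30.6 and 26.4 CPM in WT. Here too every 41-OX library exceeded the others, with a log2 fold change of 0.79 (SE 0.099, adjusted p = 6.58e-06). The plant-specific mitotic kinase genes CDKB2;1 and CDKB2;2 averaged 29.6 ± 3.602 and 16.4 ± 0.495 CPM in 41-OX, against 19.6 ± 1.11 and 9.65 ± 0.356 CPM in pxy. KNOLLE, the syntaxin that builds the new cell wall between daughter cells, averaged 28.5 ± 2.65 CPM in 41-OX and 20.2 ± 1.75 CPM in pxy (log2 fold change 0.50, adjusted p = 0.000956). HINKEL, a kinesin of the same step, averaged 9.68 ± 0.181 CPM in 41-OX and 5.25 ± 1.03 CPM in pxy (log2 fold change 0.87, adjusted p = 0.000316). MYB3R4, a factor that activates mitotic genes, had 7.55, 10.7, 8.16 and 6.77 CPM in 41-OX, against 4.72, 4.48, 5.18 and 4.66 CPM in pxy, and its log2 fold change was 0.81 (adjusted p = 0.00149). AUR2, an Aurora kinase, and CYCB3;1 did not pass, at 0.20 and 0.43 on the log2 scale. In the 24-library fit 4 of the 26 were called, and in the 22-library fit 24 were called.

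The mitotic genes have a known promoter motif, the mitosis-specific activator element bound by MYB3R factors, whose core is AACGG. Read from the other strand this core is CCGTT. It was searched on both strands in the 250 bases before each annotated gene start. The core occurred in 15 of the 26 members (57.7%), against 5645 of 27443 windows of all genes (20.6%). At least 2 copies occurred in 9 members (34.6%), against 3.62% of all windows. A match is a description of the letters, not a binding site. The windows of a pair of members with 3 copies each are shown, CYCB1;1 from chr4:17624309-17624558 on the minus strand and CYCB2;1 from chr2:7663805-7664054 on the plus strand (RefSeq TAIR10.1), with the core in capitals.
CYCB1;1: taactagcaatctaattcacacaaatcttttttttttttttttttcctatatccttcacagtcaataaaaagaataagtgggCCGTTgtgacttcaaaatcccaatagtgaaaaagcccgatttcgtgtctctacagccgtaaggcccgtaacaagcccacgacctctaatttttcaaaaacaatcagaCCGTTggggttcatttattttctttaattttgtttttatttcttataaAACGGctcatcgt
CYCB2;1: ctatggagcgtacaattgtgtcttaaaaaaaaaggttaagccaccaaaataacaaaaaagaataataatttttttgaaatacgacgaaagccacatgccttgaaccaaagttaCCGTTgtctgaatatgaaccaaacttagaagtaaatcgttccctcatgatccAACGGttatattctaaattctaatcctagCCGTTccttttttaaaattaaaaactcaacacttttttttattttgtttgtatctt
CYCB2;1, a mitotic cyclin, had 4.33, 4.08, 3.04 and 4.47 CPM in 41-OX, against 2.14, 0.968, 2.65 and 1.93 CPM in pxy, with no overlap and a log2 fold change of 1.06 (SE 0.26, adjusted p = 0.00417).

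Fewer replication genes and inhibitors of the cycle were called. Of 22 DNA replication genes tested, 5 rose, none fell and 17 did not pass, with a median log2 fold change of 0.19. MCM6, a subunit of the replicative helicase, averaged 14.0 ± 2.15 CPM in 41-OX and 9.53 ± 0.603 CPM in pxy (log2 fold change 0.55, adjusted p = 0.00455). RNR1, a subunit of the enzyme that makes deoxynucleotides, averaged 30.8 ± 3.92 CPM in 41-OX and 22.2 ± 2.504 CPM in pxy, but its groups overlapped. Of 21 D-type cyclins and inhibitors of cyclin-dependent kinases, 5 rose and 2 fell. SIM, an inhibitor that takes cells from division into endoreduplication, was among those that rose, at 31.1 ± 1.54 CPM in 41-OX and 23.2 ± 2.09 CPM in pxy (log2 fold change 0.42, adjusted p = 0.00201).

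The phloem list was divided, with 7 of 24 members tested higher in 41-OX, 6 lower and 11 not passing, and a median log2 fold change of -0.02. Genes known from early sieve-element development were among the higher ones, and genes of companion cells and mature phloem among the lower ones. This division was made after the values were seen. Among the higher members, all but BRX had higher WT levels in roots than in shoots, for BAM3 106 against 22.4 CPM. Among the lower members, all but FTIP1 had higher WT levels in shoots, for SUC2 95.9 against 50.7 CPM. The root share had a median of 27.1% of the difference in the 7 higher members, and for BAM3 it was 5.12 of 8.91 CPM. Whether the values follow cell type or organ was not tested. OPS, a protein that promotes protophloem differentiation, had 12.5, 11.8, 11.5 and 11.01 CPM in 41-OX, against 6.29, 4.72, 6.15 and 6.25 CPM in pxy and 6.30, 6.51 and 4.998 CPM in WT. Its 41-OX libraries stood apart, while pxy and WT overlapped (log2 fold change 1.00, SE 0.14, adjusted p = 3.06e-05). SMXL3, SMXL4 and SMXL5, which act together in phloem formation, rose with log2 fold changes of 0.86, 1.14 and 0.75 (adjusted p = 0.000376, 0.000659 and 0.00025). BAM3, a receptor kinase of the protophloem, averaged 31.6 ± 3.08 CPM in 41-OX and 22.7 ± 4.32 CPM in pxy (log2 fold change 0.47, adjusted p = 0.00566).

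SUC2, the sucrose carrier that loads phloem in companion cells, had 52.5, 63.5, 57.6 and 51.6 CPM in 41-OX, against 86.5, 90.4, 109 and 102 CPM in pxy and 97.0, 87.8 and 103 CPM in WT. All 41-OX libraries lay below all others, and pxy and WT overlapped. The log2 fold change was -0.79 (SE 0.088, adjusted p = 1.84e-06). SULTR2;1, a sulfate carrier of vascular cells, had 41.7, 42.2, 39.6 and 46.2 CPM in 41-OX, against 88.5, 83.2, 79.3 and 87.2 CPM in pxy and 96.6, 110.3 and 75.1 CPM in WT, the same pattern, with a log2 fold change of -0.99 (SE 0.075, adjusted p = 1.89e-08). AHA3, the proton pump of companion cells, averaged 131 ± 8.77 CPM in 41-OX and 167 ± 12.2 CPM in pxy, and PP2-A1, a phloem lectin, 108 ± 12.3 CPM in 41-OX and 155 ± 5.82 CPM in pxy (log2 fold changes -0.34 and -0.53, adjusted p = 0.00171 and 5.58e-05). SWEET11, a sucrose exporter of the phloem parenchyma, went the other way from SUC2, at 82.7 ± 4.28 CPM in 41-OX and 65.4 ± 2.67 CPM in pxy (log2 fold change 0.34, adjusted p = 0.00112). The other 3 calls were close to the threshold. BRX did not pass without 41-OX replicate 1, 2 or 4 or pxy replicate 2, 3 or 4 (0.37 to 0.49), NaKR1 without 41-OX replicate 2, 3 or 4 or pxy replicate 1, 2 or 3 (-0.24 to -0.30), and FTIP1 without 41-OX replicate 1, 3 or 4 or pxy replicate 2 or 4 (-0.37 to -0.50). In the 24-library fit, 3 members were called higher and none lower. APL, a factor for phloem identity, was not called in the main comparison.

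Xylem genes showed no common direction: of 28 tested, 4 rose, 4 fell and 20 did not pass, with a median log2 fold change of 0.10. These counts are near the shares of all genes tested, 14.1% higher and 14.8% lower. The low-count limit was reached in all 4 41-OX libraries but not in all 4 pxy libraries by 2 of the 28. VND6, the NAC factor that switches on metaxylem vessel formation, had 6.68, 6.52, 6.64 and 5.28 CPM in 41-OX, against 2.71, 2.30, 2.53 and 2.84 CPM in pxy and 3.32, 4.31 and 2.82 CPM in WT. The 41-OX libraries lay above all others (log2 fold change 1.27, SE 0.19, adjusted p = 4.3e-05). MYB58 and MYB63, activators of lignin genes, rose with log2 fold changes of 0.85 and 0.78 (adjusted p = 0.00338 and 0.00264). XCP1, a protease of dying vessel cells, averaged 40.7 ± 4.29 CPM in 41-OX and 29.3 ± 2.25 CPM in pxy (log2 fold change 0.48, adjusted p = 0.000709). Its difference of 11.39 CPM stood beside a root share of 6.45 CPM. ACL5, the thermospermine synthase that restrains xylem differentiation, had 61.9, 69.1, 59.6 and 61.4 CPM in 41-OX, against 84.9, 77.4, 87.1 and 92.2 CPM in pxy and 63.3, 61.9 and 72.4 CPM in WT. Its pxy libraries were highest, and 41-OX and WT overlapped (log2 fold change -0.44, SE 0.076, adjusted p = 0.000217). TED6, a membrane protein of vessel wall formation, averaged 30.6 ± 5.08 CPM in 41-OX and 44.7 ± 1.30 CPM in pxy (log2 fold change -0.55, adjusted p = 0.000379). The calls of XCP2 and TED7 were close to the threshold: XCP2 did not pass without 41-OX replicate 1, 3 or 4 or pxy replicate 2, 3 or 4 (-0.17 to -0.25), and TED7 without 41-OX replicate 1 or 2 or pxy replicate 1, 2, 3 or 4 (-0.37 to -0.47). The cellulose synthase genes of the secondary wall, CESA4, CESA7 and CESA8, were not called.

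**Figure D4:**
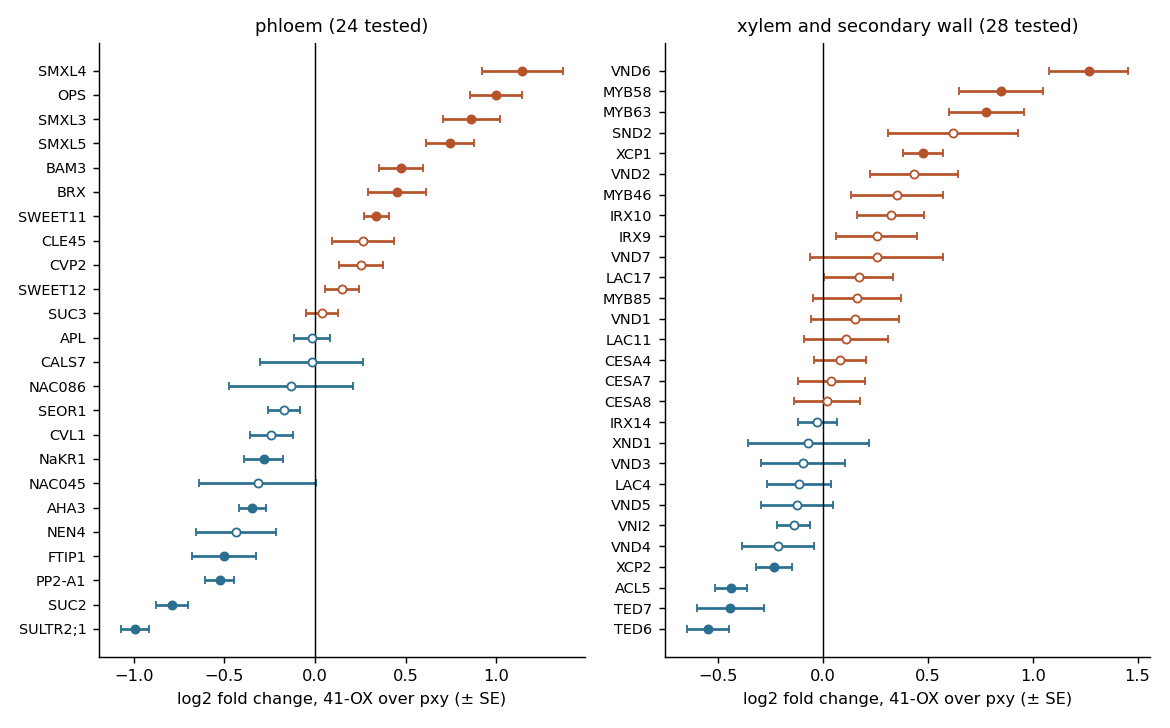
Log2 fold change, 41-OX over pxy in shoots, with its SE for the tested members of the phloem list (left, 24 genes) and the xylem and secondary wall list (right, 28 genes). Filled points were called and open points were not. Called members lie on both sides of 0 in both lists, with SMXL4 and VND6 at the top and SULTR2;1 and TED6 at the bottom.

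Of 16 lignin pathway genes, 6 rose, 1 fell and 9 did not pass. Their differences were close to the root share, with a median root share of 81.8% of the difference in the 6, and 1 of the 6 did not exceed it. PAL1, the entry enzyme of phenylpropanoid synthesis, averaged 68.5 ± 11.1 CPM in 41-OX and 44.0 ± 4.08 CPM in pxy, a difference of 24.5 CPM beside a root share of 15.99 CPM. F5H, which directs lignin towards syringyl units, was lower in 41-OX, at 41.5 ± 6.11 CPM against 56.0 ± 5.37 CPM in pxy, with overlapping libraries (log2 fold change -0.43, adjusted p = 0.00264), and did not pass in the 22-library fit, at -0.43. No lignin gene was called in the 24-library fit.

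Genes of root cell types were called higher in 41-OX shoots more often than lower. Of 22 root hair and root epidermis genes listed, 20 were tested and 18 rose, but 10 of the 20 reached the low-count limit in all 4 41-OX libraries and not in all 4 pxy libraries, so the count was partly fixed by that limit. The same held for 4 of the 13 uptake transporters tested, of 16 listed, of which 10 rose and none fell. Of 20 endodermis and suberin genes listed, 18 were tested, all of which reached the limit in the pxy libraries, and 15 rose and 1 fell. The 24-library fit called 14 root hair genes, 4 transporters and 3 endodermis genes higher. EXPA7, an expansin of root hair cells, had 10.3, 10.4, 11.8 and 9.87 CPM in 41-OX, against 0.429, 1.33, 0.603 and 1.25 CPM in pxy and 0.344, 0.792 and 0.256 CPM in WT. RHS13, a root hair gene, had 52.1, 47.2, 54.6 and 42.2 CPM in 41-OX, against 5.43, 11.01, 8.32 and 9.66 CPM in pxy and 6.41, 5.02 and 9.23 CPM in WT. Both groups of 41-OX libraries stood far above the others, with log2 fold changes of 3.49 and 2.49 (adjusted p = 5.92e-09 and 1.19e-09). CASP1, which builds the Casparian strip of the endodermis, averaged 28.1 ± 5.01 CPM in 41-OX and 9.49 ± 3.01 CPM in pxy, and PHT1;1, a phosphate carrier of roots, 26.9 ± 3.37 CPM in 41-OX and 7.31 ± 1.33 CPM in pxy.

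The amount by which these lists differed from the root-specific genes varied. The root share had a median of 36.4% of the difference in the 18 root hair genes, 41.7% in the 15 endodermis genes and 58.1% in the 10 transporters, where 1 did not exceed it. For RHS13 the difference was 40.4 CPM and the root share 6.98 CPM. For TIP2;3, a root aquaporin, the difference was 29.3 CPM and the root share 14.1 CPM. SHR, a factor that moves from the stele into the endodermis, averaged 14.9 ± 2.49 CPM in 41-OX and 7.24 ± 0.574 CPM in pxy, a difference of 7.66 CPM beside a root share of 1.53 CPM (log2 fold change 1.04, adjusted p = 2.6e-05). Of the 16 root tip and lateral root genes listed, 5 were tested and 2 were called, and WOX5, the homeobox gene of the root organising centre, had 1.86, 2.85, 2.63 and 1.72 CPM in 41-OX, against 1.29, 1.45, 1.08 and 0.909 CPM in pxy. Its call (log2 fold change 0.94, adjusted p = 0.0195) did not hold without 41-OX replicate 2 or pxy replicate 3 or 4, at 0.81 to 0.90. In this list, 3 of the 5 tested reached the low-count limit in all 4 41-OX libraries but not in all 4 pxy libraries.

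More jasmonate genes were called lower than higher in 41-OX. Of 16 genes of jasmonate synthesis and breakdown, 7 fell, 2 rose and 7 did not pass. Of 11 JAZ repressor genes 5 fell, and of 14 regulators and outputs 6 fell, with no member called higher in either list. In the 24-library fit 2 JAZ genes were called lower, and no member of the other 2 lists was called. AOS, the enzyme that commits fatty acid hydroperoxides to jasmonate, had 33.3, 43.1, 44.0 and 40.7 CPM in 41-OX, against 85.6, 73.8, 74.2 and 79.4 CPM in pxy and 77.2, 75.5 and 76.9 CPM in WT. Its 41-OX libraries lay below all others, while pxy and WT overlapped (log2 fold change -0.96, SE 0.088, adjusted p = 1.75e-07). LOX2, the plastid lipoxygenase of leaf jasmonate, had 14.1, 21.5, 25.5 and 20.5 CPM in 41-OX, against 59.2, 41.1, 45.7 and 66.6 CPM in pxy and 29.8, 41.0 and 30.1 CPM in WT. The pxy libraries were the highest, and WT stood between the lines (log2 fold change -1.38, SE 0.18, adjusted p = 6.54e-05). In WT, AOS and LOX2 were higher in shoots (76.5 and 33.6 CPM) than in roots (25.1 and 0.329 CPM). The allene oxide cyclase genes divided: AOC1 and AOC2 fell, with log2 fold changes of -1.63 and -0.92 (adjusted p = 8.64e-08 and 1.44e-07), and AOC3 and AOC4 rose, with 0.88 and 0.33 (adjusted p = 0.00104 and 0.0113). In WT, AOC1 and AOC2 were higher in shoots (11.6 and 53.3 CPM) than in roots (1.66 and 9.95 CPM). AOC3 and AOC4 were higher in WT roots (45.85 and 80.35 CPM) than in WT shoots (2.88 and 29.4 CPM). Their differences of 2.87 and 7.46 CPM stood beside root shares of 2.21 and 3.87 CPM. Whether the division follows organ levels, or whether reads were split among these related genes, was not tested. Without 41-OX replicate 2, 4 synthesis genes were called lower in place of 7.

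Among the JAZ repressors, which block jasmonate-responsive factors and are themselves induced by the hormone, JAZ9 had 29.4, 32.8, 43.7 and 35.0 CPM in 41-OX, against 71.2, 51.9, 69.1 and 73.0 CPM in pxy and 69.8, 72.8 and 67.7 CPM in WT. The 41-OX libraries lay below all others (log2 fold change -0.92, SE 0.12, adjusted p = 1.54e-05). JAZ7, another member, averaged 1.47 ± 0.463 CPM in 41-OX and 4.52 ± 0.320 CPM in pxy (log2 fold change -1.60, adjusted p = 4.82e-05). ANAC019, ANAC055 and RD26, NAC factors induced by jasmonate and abscisic acid, all fell. ANAC019 had 4.08, 2.96, 1.94 and 1.83 CPM in 41-OX, against 7.14, 11.4, 11.6 and 15.6 CPM in pxy and 11.3, 13.6 and 11.7 CPM in WT, and the 41-OX libraries did not overlap with the rest. The log2 fold changes of ANAC019, ANAC055 and RD26 were -2.08, -0.72 and -0.82 (adjusted p = 5.53e-06, 3.05e-06 and 3.18e-07). In WT, JAZ9, JAZ7, ANAC019, ANAC055 and RD26 were all higher in shoots than in roots, for JAZ9 70.1 against 10.5 CPM and for RD26 69.4 against 33.4 CPM. Whether these falls follow organ levels was not tested.

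Genes induced by touch were mostly lower in 41-OX than in pxy. Of 13 touch and calcium genes tested, 7 fell and 2 rose, and WT lay above both lines for 6 of the 9 called. TCH4, a wall-modifying enzyme named for its touch response and also a member of the XTH list, had 126, 158, 210.4 and 135 CPM in 41-OX, against 300.2, 260.3, 299.8 and 243 CPM in pxy and 304, 279.9 and 294 CPM in WT. The 41-OX libraries lay below all others (log2 fold change -0.81, SE 0.13, adjusted p = 0.000327), but TCH4 did not pass in the 22-library fit, at -0.82. A calcium-binding member of the list, CML38, had 7.92, 8.05, 12.2 and 8.83 CPM in 41-OX, against 14.0, 17.9, 17.8 and 18.4 CPM in pxy and 36.3, 63.2 and 37.7 CPM in WT. The 3 genotypes did not overlap, with 41-OX lowest and WT highest (log2 fold change -0.90, SE 0.15, adjusted p = 0.000105). In WT, TCH4 and CML38 were higher in shoots (292.6 and 45.7 CPM) than in roots (5.45 and 3.75 CPM). No touch gene tested had WT levels within 1.5-fold between organs, and whether the falls follow organ levels was not tested.

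Rapid stress transcription factors, which many stimuli induce early, were called lower more often than higher. Of 19 tested, 8 fell, 2 rose and 9 did not pass, and WT lay above both lines for 8 of the 10 called. SZF1, a zinc finger protein, had 26.2, 35.1, 42.8 and 34.2 CPM in 41-OX, against 56.6, 58.5, 58.2 and 64.1 CPM in pxy and 121, 138 and 118 CPM in WT. WRKY33, a factor of pathogen defence, had 21.2, 26.1, 23.5 and 27.5 CPM in 41-OX, against 31.1, 39.8, 35.8 and 37.0 CPM in pxy and 81.6, 88.4 and 78.0 CPM in WT. CBF1, an activator of cold-response genes, had 3.71, 2.24, 3.18 and 4.24 CPM in 41-OX, against 7.14, 7.86, 6.15 and 9.20 CPM in pxy and 17.2, 24.6 and 16.1 CPM in WT. In all 3 genes 41-OX was lowest and WT highest with no overlap, and the log2 fold changes, 41-OX over pxy, were -0.79, -0.55 and -1.19 (adjusted p = 1.75e-05, 0.000421 and 0.000177). WRKY48, 1 of the 2 members that rose, averaged 7.60 ± 0.409 CPM in 41-OX, 4.09 ± 0.493 CPM in pxy and 5.27 ± 0.931 CPM in WT (log2 fold change 0.89, adjusted p = 0.000357). In WT, SZF1, WRKY33 and CBF1 were higher in shoots (125.6, 82.7 and 19.3 CPM) than in roots (34.8, 62.5 and 0.0925 CPM). WRKY48, which rose, was also higher in WT shoots (5.27 CPM) than in WT roots (2.33 CPM). Of 7 rapid stress factors with WT levels within 1.5-fold between organs, 1 was called lower. Whether these values follow organ levels was not tested. In the 24-library fit none of the touch genes and none of the rapid stress factors was called lower.

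**Figure D5:**
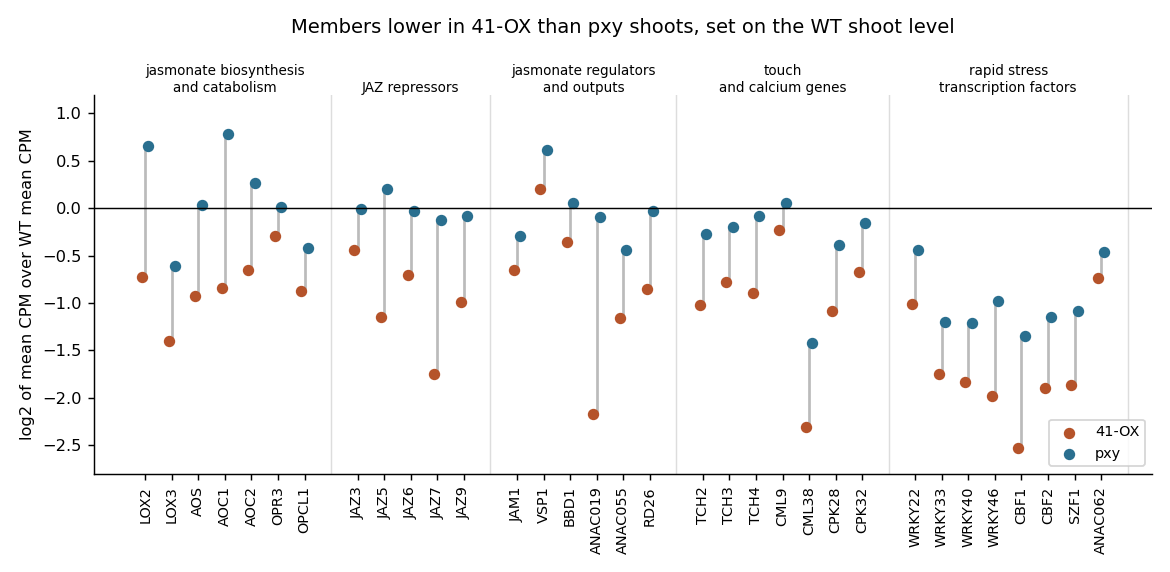
Log2 of the mean CPM over the WT mean CPM (y axis) for the members of 5 stress and jasmonate lists that were called lower in 41-OX than in pxy shoots. Points are means of 4 41-OX and 4 pxy libraries, set on the mean of 3 WT libraries at 0. The 41-OX points lie below the pxy points by the choice of genes. The pxy points lie near 0 for most JAZ genes and below 0 for all 8 rapid stress factors.

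Other stress hormone lists were mixed. Of 15 ethylene response factors, 6 fell and 2 rose. RAP2.6, an ERF of wounding and stress, was the exception by size, with 6.80, 6.73, 8.16 and 5.96 CPM in 41-OX, against 0.857, 0.605, 1.08 and 1.14 CPM in pxy and 0.801, 0.616 and 0.897 CPM in WT. Its 41-OX libraries stood far above the overlapping pxy and WT libraries (log2 fold change 2.87, SE 0.24, adjusted p = 6.18e-08). In WT, RAP2.6 stood at 44.7 CPM in roots and 0.77 CPM in shoots, so it is itself among the root-specific genes. Its difference of 5.99 CPM stood beside a root share of 2.15 CPM, which was drawn from a set that holds RAP2.6. ERF6, a factor of early stress responses, averaged 14.8 ± 3.08 CPM in 41-OX and 23.8 ± 2.82 CPM in pxy (log2 fold change -0.69, adjusted p = 0.000492). Of 21 genes of ethylene synthesis and perception, 4 rose and 5 fell. ACO1, an enzyme of the last step of ethylene synthesis, had 18.6, 22.8, 10.8 and 14.9 CPM in 41-OX, against 5.72, 6.41, 4.58 and 6.48 CPM in pxy and 4.46, 4.31 and 5.38 CPM in WT, with 41-OX above all others (log2 fold change 1.54, SE 0.20, adjusted p = 1.19e-05). Among the ACC synthases of the step before, ACS5 rose (1.17, adjusted p = 3.47e-05) and ACS6 and ACS11 fell (-0.69 and -0.65, adjusted p = 0.00153 and 0.000723). ACS6 did not pass in the 22-library fit or with all 12 shoots, at -0.69 in both. Of 11 salicylate and pipecolate genes tested, 3 fell and none rose, and CBP60g, a factor that activates salicylate synthesis, averaged 6.19 ± 1.33 CPM in 41-OX and 12.3 ± 2.91 CPM in pxy with overlapping libraries (adjusted p = 0.000449).

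Auxin response genes leaned downward while carriers divided. Of 22 response genes tested, 7 fell and 2 rose. IAA14, an Aux/IAA repressor, had 48.5, 49.0, 48.0 and 46.6 CPM in 41-OX, against 71.2, 82.1, 75.9 and 82.2 CPM in pxy and a mean of 83.9 ± 5.36 CPM in WT, and 41-OX lay below all others (log2 fold change -0.70, SE 0.073, adjusted p = 8.6e-07). IAA29, an Aux/IAA gene induced in growing shoots, averaged 112 ± 12.5 CPM in 41-OX and 189 ± 26.9 CPM in pxy (log2 fold change -0.75, adjusted p = 8.9e-06), and did not pass in the 22-library fit, at -0.75. IAA20, a member of the family expressed in the vasculature, went the other way, with 7.92, 4.99, 2.49 and 5.96 CPM in 41-OX, against 0.286, 1.94, 1.81 and 2.04 CPM in pxy. Its groups did not overlap, though the 41-OX libraries spread widely (log2 fold change 1.77, SE 0.37, adjusted p = 0.00183). The efflux carriers PIN3, PIN4 and PIN7 fell, with log2 fold changes of -0.25, -0.42 and -0.39 (adjusted p = 0.00998, 0.000345 and 0.000607), but PIN3 did not pass in the 22-library fit, at -0.25. The influx carriers LAX2 and LAX3 rose, with 0.60 and 0.73 (adjusted p = 0.000699 and 6.94e-05). PID and WAG2, kinases that act on PIN proteins, rose as well, with 0.85 and 0.97 (adjusted p = 0.00344 and 0.00237). In WT, PIN3, PIN4 and PIN7 were higher in shoots (147.5, 102.2 and 124.5 CPM) than in roots (39.7, 46.8 and 48.1 CPM). LAX2, LAX3, PID and WAG2 were higher in WT roots than in WT shoots. The root share had a median of 21.5% of the difference in these 4, and for LAX3 it was 4.15 of 9.78 CPM. Whether the division follows organ levels was not tested.

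Cytokinin genes had no common direction, with 4 of 25 higher and 6 lower, beside 14.1% higher and 14.8% lower of all genes tested. ARR3, a type-A response regulator, had 7.55, 7.24, 5.95 and 7.57 CPM in 41-OX, against 0.857, 1.94, 1.45 and 2.27 CPM in pxy and 0.572, 0.968 and 0.897 CPM in WT. In WT, ARR3 stood at 47.96 CPM in roots and 0.81 CPM in shoots, so it is itself among the root-specific genes. Its difference of 5.45 CPM stood beside a root share of 2.31 CPM, which was drawn from a set that holds ARR3 (log2 fold change 2.08, SE 0.23, adjusted p = 1.51e-06). CYP735A2, which makes trans-zeatin, averaged 5.94 ± 0.901 CPM in 41-OX and 2.91 ± 0.467 CPM in pxy (log2 fold change 1.03, adjusted p = 0.00051). For the cytokinin receptor AHK4 the difference of 8.81 CPM was close to the root share of 7.96 CPM. CKX7, a cytokinin oxidase, fell, at 4.81 ± 0.755 CPM in 41-OX and 8.06 ± 0.858 CPM in pxy (log2 fold change -0.74, adjusted p = 0.00206).

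Of 22 brassinosteroid genes 6 fell and 1 rose. BEE3, a bHLH factor induced by the hormone, had 51.1, 51.4, 53.8 and 49.2 CPM in 41-OX, against 78.7, 90.5, 90.9 and 79.0 CPM in pxy and 102, 85.2 and 97.3 CPM in WT, and 41-OX lay below all others (log2 fold change -0.72, SE 0.076, adjusted p = 7.92e-07). Its relatives PRE1 and PRE5 moved apart, PRE1 with a log2 fold change of -0.66 and PRE5 with one of 0.81 (adjusted p = 3.25e-05 and 0.00211). BEE3 and PRE1 did not pass in the 22-library fit, at -0.72 and -0.66. Of 25 gibberellin genes, 4 rose and 8 fell. GASA4, a gibberellin-induced peptide gene of meristems, had 669.9, 579.9, 524 and 549.6 CPM in 41-OX, against 349, 314, 318 and 334 CPM in pxy and 257, 279 and 335 CPM in WT. The 41-OX libraries lay above all others (log2 fold change 0.82, SE 0.086, adjusted p = 8.53e-07). GA20OX2, a synthesis enzyme, averaged 6.33 ± 0.631 CPM in 41-OX and 11.3 ± 1.77 CPM in pxy (log2 fold change -0.83, adjusted p = 0.00035).

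Of 14 flowering regulators tested, 5 fell and none rose, most of them repressors of flowering. FLC, the repressor that vernalisation silences, had 14.2, 10.8, 11.5 and 10.6 CPM in 41-OX, against 27.3, 29.4, 29.1 and 26.8 CPM in pxy and 28.9, 25.9 and 27.8 CPM in WT, where pxy and WT overlapped (log2 fold change -1.26, SE 0.11, adjusted p = 1.16e-07). MAF4, its relative, had 5.20, 4.08, 3.74 and 4.47 CPM in 41-OX, against 15.6, 10.2, 14.5 and 12.8 CPM in pxy and 16.6, 17.2 and 17.56 CPM in WT (log2 fold change -1.59, SE 0.17, adjusted p = 8.67e-07). SOC1, a promoter of flowering, and SVP, a repressor, fell too, with -0.52 and -0.41 (adjusted p = 0.000215 and 0.000413), but SVP did not pass in the 22-library fit, at -0.42. BFT, a relative of FT that delays flowering, was near the detection limit in 41-OX, at 0.619, 0.102, 0.277 and 0.459 CPM, against 2.43, 2.42, 3.01 and 5.79 CPM in pxy (log2 fold change -3.23, SE 0.44, adjusted p = 1.79e-05).

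Of 20 clock genes 2 rose and 4 fell, beside 14.1% higher and 14.8% lower of all genes tested. The morning genes CCA1 and PRR9 averaged 13.9 ± 1.48 and 14.0 ± 2.61 CPM in 41-OX, against 22.2 ± 6.18 and 26.2 ± 5.08 CPM in pxy and 26.4 ± 3.39 and 33.8 ± 4.70 CPM in WT. Both fell, with log2 fold changes of -0.69 and -0.91 (adjusted p = 0.00298 and 9.24e-05). WT lay above both lines for the 4 that fell and below both for the 2 that rose. The labels do not give the hour of harvest.

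Of 17 leaf polarity genes 3 fell and 6 rose, among them AS1 and AS2, partners that repress KNOX genes in leaves. The low-count limit was reached in all 4 41-OX libraries but not in all 4 pxy libraries by 2 of the 17. AS1 averaged 46.2 ± 3.904 CPM in 41-OX and 34.05 ± 2.91 CPM in pxy, and AS2 2.39 ± 0.561 CPM in 41-OX and 1.04 ± 0.145 CPM in pxy (log2 fold changes 0.44 and 1.16, adjusted p = 0.000781 and 0.00427). Of 15 stomatal lineage genes 2 rose and 1 fell, a share near that of all genes. Of 26 genes of photosynthetic tissue 12 fell and none rose, beside the lower shoot-specific medians given above. LHCA4, an antenna protein of photosystem I, averaged 3831 ± 417 CPM in 41-OX and 5136 ± 560.2 CPM in pxy (log2 fold change -0.42, adjusted p = 0.0081), and did not pass in the 22-library fit or with all 12 shoots, at -0.42 in both. The count for the list rested on the libraries used: 7 of the 26 were called lower without 41-OX replicate 1, 5 without 41-OX replicate 2, and none when all 12 shoot libraries, 22 libraries or all 24 shared the estimate of spread. Of 13 flavonoid genes tested, 4 rose and none fell. The low-count limit was reached in all 4 41-OX libraries but not in all 4 pxy libraries by 3 of the 13. CHS, the first enzyme of flavonoid synthesis, had 17.57, 17.43, 18.0 and 15.03 CPM in 41-OX, against 10.3, 7.14, 9.52 and 6.70 CPM in pxy and 9.62, 11.3 and 8.20 CPM in WT, with 41-OX above all others (log2 fold change 1.02, SE 0.14, adjusted p = 2.3e-05). Its difference of 8.59 CPM stood beside a root share of 4.41 CPM.

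In the wall-loosening families, 6 of 27 expansin and XTH genes rose and 6 fell. XTH19, an enzyme that cuts and rejoins xyloglucan, had 117, 133, 122 and 119 CPM in 41-OX, against 51.3, 76.2, 64.1 and 65.7 CPM in pxy and 65.6, 60.0 and 74.1 CPM in WT (log2 fold change 0.93, SE 0.093, adjusted p = 4.93e-07). The difference of 58.2 CPM exceeded the root share of 5.64 CPM. EXPA16, an expansin, had 16.3, 17.7, 12.2 and 16.8 CPM in 41-OX, against 36.3, 24.7, 31.7 and 40.3 CPM in pxy and a mean of 16.9 ± 3.52 CPM in WT. The 41-OX and WT libraries overlapped, and all pxy libraries lay above them (log2 fold change -1.07, SE 0.14, adjusted p = 1.41e-05).

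Nutrient lists were mixed. Of 16 iron genes 5 rose and 1 fell, and IRT2, an iron carrier of roots, averaged 6.95 ± 1.31 CPM in 41-OX and 0.914 ± 0.305 CPM in pxy (log2 fold change 2.88, adjusted p = 1.27e-07). IRT2 is itself among the root-specific genes, at 55.96 CPM in WT roots and 0.67 CPM in WT shoots. Its difference of 6.03 CPM stood beside a root share of 2.70 CPM, which was drawn from a set that holds IRT2. The low-count limit was reached in all 4 41-OX libraries but not in all 4 pxy libraries by 3 of the 16. OPT3, which moves iron in the phloem, had a difference of 14.8 CPM beside a root share of 0.552 CPM (log2 fold change 0.53, adjusted p = 0.0011). Of 14 sulfur genes 1 rose and 2 fell, of 16 phosphate genes 1 rose and 3 fell, and of 17 nitrate genes 4 rose and 4 fell. The shares of all genes tested were 14.1% higher and 14.8% lower. GLN1;1, a cytosolic glutamine synthetase, averaged 97.8 ± 8.22 CPM in 41-OX and 58.0 ± 6.40 CPM in pxy (log2 fold change 0.75, adjusted p = 2.3e-06). Of 16 indole glucosinolate and camalexin genes 5 rose and 4 fell: MYB34 and MYB122 rose, with 0.57 and 1.36, and MYB51, the third activator of the pathway, fell, with -0.50 (adjusted p = 0.000682, 0.00275 and 0.00305). In WT, MYB34 and MYB122 were higher in roots (199.9 and 14.8 CPM) than in shoots (52.9 and 0.931 CPM), and MYB51 was lower (19.9 against 35.6 CPM). The root share had a median of 48.4% of the difference in the 5 that rose. The low-count limit was reached in all 4 41-OX libraries but not in all 4 pxy libraries by 3 of the 16. Of 17 heat and protein folding genes 4 rose and 3 fell. MBF1C, a coactivator of heat responses, had 14.97, 13.4, 15.9 and 13.4 CPM in 41-OX, against 28.4, 27.7, 23.5 and 27.3 CPM in pxy and 30.7, 34.6 and 31.1 CPM in WT (log2 fold change -0.89, adjusted p = 3.71e-06).

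The largest differences were at loci that stood at or near 0 in 1 line. AT2G06590, a pseudogene, had 76, 80, 62 and 102 counts in the 41-OX libraries, against 0 in every pxy and WT library. As CPM without TMM scaling, that was at least 108-fold higher in 41-OX than the floor of 3 counts over the 4 pxy libraries. AT2G06670, another pseudogene on chromosome 2, had 137 counts in 41-OX, 5 in pxy and 3 in WT. At AT5G35935, the locus named at the outset, WT had 19 counts, so WT stood with 41-OX (log2 fold change, 41-OX over pxy, -6.40, SE 0.25, adjusted p = 5.08e-12). MRD1 had 2.97, 3.06, 4.29 and 5.28 CPM in 41-OX, against 0.143, 0, 0.120 and 0.227 CPM in pxy and 2.98, 2.90 and 2.95 CPM in WT, with 41-OX and WT overlapping and pxy near 0 (log2 fold change 4.81, adjusted p = 2.53e-07). AT1G48660 rose with a log2 fold change of 3.5 (adjusted p = 9.22e-08), from a difference of 6.12 CPM beside a root share of 0.0205 CPM. RAP2.11, a factor of the potassium starvation response in roots, averaged 6.78 ± 1.41 CPM in 41-OX and 0.510 ± 0.311 CPM in pxy (log2 fold change 3.66, adjusted p = 7.44e-08). It is among the root-specific genes, at 44.25 CPM in WT roots and 0.488 CPM in WT shoots. Its difference was 6.27 CPM and its root share 2.13 CPM. Of the other genes with the largest rises, AT4G31320, AT1G68250, AT5G19800 and AT1G11655 had log2 fold changes of 4.16, 3.66, 3.53 and 3.5. The difference exceeded the root share in all 4. AT1G68250 was near 0 in WT roots (0.0234 CPM). AT4G31320, AT5G19800 and AT1G11655 were higher in WT roots (40.7, 19.4 and 14.4 CPM) than in WT shoots (0.504, 0.25 and 0.317 CPM). Their differences were 3.35, 3.77 and 4.99 CPM, beside root shares of 1.96, 0.934 and 0.693 CPM. In pxy they averaged 0.176, 0.338 and 0.448 CPM, so only the 41-OX libraries brought them past the low-count limit.

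Other genes with large differences are given singly. SESA5, a seed storage albumin gene, had 8.29, 9.78, 5.12 and 8.603 CPM in 41-OX, against 0.143, 0.121, 0.723 and 1.59 CPM in pxy and 0.229, 2.02 and 0.384 CPM in WT. The 41-OX libraries were the highest (log2 fold change 3.54, SE 0.39, adjusted p = 3.25e-06). COR15A and COR15B, which protect chloroplast membranes in the cold, fell together. COR15A had 3.46, 4.99, 4.15 and 3.33 CPM in 41-OX, against 25.1, 18.8, 18.6 and 39.6 CPM in pxy and 10.99, 23.0 and 12.8 CPM in WT. COR15B averaged 3.497 ± 1.05 CPM in 41-OX and 23.2 ± 8.58 CPM in pxy, and the log2 fold changes were -2.67 and -2.73 (adjusted p = 8.8e-06 and 8.92e-06). CORI3, a gene induced by coronatine and jasmonate, had 1.24, 0.917, 0.969 and 0.459 CPM in 41-OX, against 7.43, 8.11, 7.11 and 9.66 CPM in pxy and 4.58, 6.34 and 5.25 CPM in WT (log2 fold change -3.17, SE 0.25, adjusted p = 2.74e-08). For COR15A and CORI3 all 41-OX libraries lay below all pxy and WT libraries. AT1G53870 and AT1G53890, which lie close together on chromosome 1, fell together as well, with -2.79 and -2.78 (adjusted p = 5.92e-09 and 8.19e-09), as did MBP1, a myrosinase-binding protein gene, SWEET4, a sugar carrier gene, and AT2G16367, with -2.59, -2.44 and -3.35.

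The same contrast in roots was set beside the shoots to show where the shoots differed. Without pxy root replicate 2, 217 of 19889 genes (1.09%) were higher and 730 (3.67%) were lower in 41-OX than in pxy roots, and as labelled 2 were higher and 31 lower. Leaving that library out was chosen after seeing the data. Of 18568 genes tested in both organs, 423 were called in both, which is 8.13% of the 5204 shoot calls and 49.8% of the 850 root calls. Of these, 75 were higher and 119 lower in both organs, 209 were higher in shoots and lower in roots, and 20 were lower in shoots and higher in roots. CLE41 was higher in 41-OX roots as well, at 34.8, 33.4, 35.8 and 27.6 CPM in 41-OX roots, against 5.47, 16.4, 8.91 and 8.02 CPM in the roots labelled pxy, the second value being replicate 2. Its log2 fold change in roots was 2.14 without that replicate (SE 0.19, adjusted p = 0.00047). Without that library none of the 26 G2-M genes and none of 19 vascular genes tested was called in roots. For lists of this size that is near the root shares of 1.09% and 3.67% over all genes, so it does not set these lists apart.

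The difference between organs was itself tested as an interaction. As labelled, 80 of 20944 genes (0.382%) had a 41-OX over pxy change that differed between shoots and roots, and without pxy root replicate 2 it was 2887 of 21106 (13.7%). All 80 kept their call and sign without that library. PXY was among them. It had 15.9, 17.0, 18.9 and 14.0 CPM in 41-OX roots, against 20.3, 11.4, 13.8 and 19.1 CPM in the roots labelled pxy, the second of which has the shoot profile. The log2 difference of the change, shoots minus roots, was -1.31 (SE 0.23, adjusted p = 0.0239) as labelled. PLT5 had 2.15, 2.89, 3.91 and 1.97 CPM in 41-OX roots, against 2.04, 4.22, 1.39 and 2.29 CPM in the roots labelled pxy, and its interaction was 2.51 (SE 0.46, adjusted p = 0.034). SRO3, a protein of the RCD1 family, averaged 6.59 ± 0.609 CPM in 41-OX shoots and 1.19 ± 0.312 CPM in pxy shoots, and had 1.59, 1.57, 1.27 and 1.53 CPM in 41-OX roots, against 4.398, 1.46, 2.198 and 2.93 CPM in the roots labelled pxy. Its interaction was 3.33 (SE 0.41, adjusted p = 0.00462). UMAMIT17, an amino acid exporter, showed the reverse, with 3.17 ± 0.894 CPM in 41-OX shoots and 7.19 ± 1.28 CPM in pxy shoots, and 56.5, 62.4, 50.9 and 63.7 CPM in 41-OX roots, against 33.5, 13.0, 33.8 and 34.2 CPM in the roots labelled pxy (interaction -2.23, SE 0.40, adjusted p = 0.0271). For CYCB1;1 the interaction was 0.53 as labelled (adjusted p = 0.69) and 0.84 without pxy root replicate 2 (adjusted p = 0.00659). For SUC2 it was -0.39 as labelled (adjusted p = 0.772) and -1.05 without that library (adjusted p = 0.00152).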

How the data were processed

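RNA from shoots and roots was sequenced after library preparation by the high-throughput method of Kumar and colleagues, per the labels' protocols. The submitters' processing notes name CASAVA, TopHat2, HTSeq and TAIR10. The deposited values are raw read counts per locus, 1 table for 24 libraries, and how overlapping loci and strands were counted is not given in the sources used here. Rows for reads in no feature (1.82% to 3.41% of reads) or in several (1.80% to 2.61%) were left out. RefSeq TAIR10.1, the source of names and coordinates, annotates 32835 of the table's 33602 loci.

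The 8 libraries were fitted in R 4.3.3 with edgeR 4.0.16 (robust quasi-likelihood F-test, TMM over 12 shoots, filterByExpr on the 8), with Benjamini-Hochberg adjustment over all 19711 genes tested and a threshold of 0.05. The fit compared 41-OX with pxy, and a fit of 16 shoot and root libraries gave the interaction. Levels are TMM-scaled CPM, but WT root levels and the percentages given for organ-specific genes use CPM by library total without TMM. Root shares and comparisons of WT roots with WT shoots therefore mix these scales. This bears most on genes near even, such as NaKR1 (16.6 CPM in WT roots, 20.0 in WT shoots) and BRX (4.50 and 5.34 CPM). Root-specific genes had at least 20 CPM in WT roots and at least 50-fold less in WT shoots, and shoot-specific genes the reverse. Alternatives were DESeq2 1.42.0 (size factors and Wald test), other filters (none, or 10 counts in every library of a group), other sets of libraries, a replicate block and leaving out each replicate. The calculations were tested on simulated data.

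The 38 gene lists (785 loci) and the comparison itself were chosen with earlier results of these data known. Genes were named by rule: CLE41 and PXY, the 10 largest rises and falls without overlap at an average log2 CPM of at least 1, up to 5 called members per list by p, and up to 5 interaction genes per direction. Some genes that the rule gave are not printed, and other list members are named with their values.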

Additional observations from a re-analysis of the deposited data

Results flagged for a closer look

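In 19 of 316 groups of 4 libraries examined, 1 library stood apart from the other 3 by Dixon's criterion, which chance alone meets in about 1 in 20 groups. Among 41-OX shoots the library was replicate 1 for IAA29 (131 CPM, highest) and WAG2 (8.17 CPM, highest). It was replicate 2 for LBD4 (8.76 CPM, lowest), FTIP1 (8.87 CPM, highest), LAX3 (29.4 CPM, highest), AT5G35935 (0.408 CPM, highest) and SWEET4 (1.32 CPM, highest). Replicate 3 stood apart for CDC20.1 (35.8 CPM, lowest), HINKEL (9.41 CPM, lowest) and ERF6 (19.4 CPM, highest), and replicate 4 for VND6 (5.28 CPM, lowest), LSU1, a gene induced by sulfur deficiency (7.11 CPM, highest), and RGP4 (2.29 CPM, highest). Among pxy shoots it was replicate 1 for AOC1 (15.4 CPM, lowest), CML38 (14.0 CPM, lowest) and IAA20 (0.286 CPM, lowest). For OPS it was pxy replicate 2 (4.72 CPM, lowest), for CBP60g replicate 3 (7.96 CPM, lowest), and for AT1G68250 replicate 4 (4.32 CPM, highest).

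For 13 named genes the log2 change, 41-OX over pxy, differed between shoots and roots in the interaction test as labelled, with pxy root replicate 2 included. The difference, shoots minus roots, was positive for PLT5 (2.51), XTH19 (1.03), LSU1 (2.75), AT5G61490 (2.38), AT1G20180 (4.49), XTH26 (3.93), RGP4 (3.51) and SRO3 (3.33). It was negative for PXY (-1.31), MOT1 (-3.02), UMAMIT17 (-2.23), EXLB1 (-1.57) and ORTHL (-1.29).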

How the results depend on the processing

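The 5694 genes called between 41-OX and pxy shoots became 793 (614 higher, 179 lower) when all 24 libraries shared the fit, and 4503 (2672 higher, 1831 lower) with 22 libraries, a fit added after seeing the data that leaves out pxy root replicate 2 and WT shoot replicate 2. They became 797 among genes with even levels between organs, where fewer genes were tested and 219 were higher and 578 lower, and 1079 at a log2 fold change of at least 1 in size. DESeq2 size factors gave 5581 with 3265 higher and 2316 lower, 58.5% higher in place of 48.8%, with the median of all genes at 0.036 in place of -0.006. The other counts were 6091 without a low-count filter, 5700 with the stricter one, 5160 by the DESeq2 Wald test, 5440 with 12 shoots, 5658 with TMM over the 8, and 4344 (without 41-OX replicate 2) to 5513 (without 41-OX replicate 3) when 1 library was left out. With the replicate block 6349 genes were called in shoots and 20 in the interaction. Same-numbered libraries share only a number: their deviations correlated at 0.154, 0.062, 0.076 and -0.002, and 41-OX replicate 2 correlated best with pxy replicate 4 (0.16), so not every library correlated best with its own number. The 80 interaction genes became 387 by the DESeq2 Wald test, 220 with all 24 libraries, and 23 (without pxy shoot replicate 4) to 2887 (without pxy root replicate 2) when 1 library was left out, and the 33 root genes became 947 without pxy root replicate 2. Among the libraries left out, pxy root replicate 2 was the 1 whose omission raised the interaction count. The cause was not tested in the other cases. Of the 153 genes named and called, 153 had the same sign in every alternative. Their calls were lost in the fit of 24 libraries for 97, without some 1 replicate for 12, which are named beside their values, and in another alternative for 22. In the 22-library fit the calls lost were of LBD4, KNAT1, PLT7, ATHB15, XCP2, TED7, F5H, NaKR1, FTIP1, TCH4, ACS6, IAA29, PIN3, PRE1, BEE3, SVP, LHCA4, WOX5 and LSU1. Depth left 19711 of 33602 loci with enough counts to be tested in shoots.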
